A study of Mus musculus with 5 samples.

Results

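A set of 55 genes of DNA replication, the G1/S transition and mitosis was followed in CD4+ T cells of the inflamed mouse colon and in naive T cells. The members were chosen by name, as 19 genes of DNA replication, 9 G1/S regulators and 27 mitosis genes. Of these, 54 were measured among 18193 genes with a probe set that carries 1 gene symbol. Ccnb1, which encodes cyclin B1, had no such probe set and was not analysed here. CXCR6 Hi and CXCR6 Lo CD3+CD4+ T cells (2 arrays each) came from the colonic lamina propria (LP) of colitic Rag1-/- mice, which have no T and B cells of their own and had received splenic CD4+CD45RBhigh T cells of BALB/c mice, 6 weeks earlier according to the source of the array fold changes. The cells were told apart by their binding of a CXCL16 fusion protein, CXCL16 being the ligand of CXCR6. A single array held CD3+CD4+CD45Rb Hi naive T cells of healthy BALB/c mice, the kind of cell that was transferred. The mice were 8 to 12 weeks old at use. The labels call the LP arrays biological replicates, and the number of mice behind each is not stated. Naive cells are placed in the spleen by the methods and by one label, and in the LP by another label.

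Cells that prepare to divide load the MCM helicase on replication origins, where it is joined by CDC45 and the GINS complex, while polymerases, the PCNA clamp and the enzymes of nucleotide supply copy the DNA. In mitosis, cyclin-dependent kinase 1, the Aurora and Polo kinases and the motors and checkpoint proteins of the spindle divide the chromosomes. Transcription of the early genes is governed by E2F factors at the G1/S transition. That of the late genes is governed by complexes of B-MYB and FOXM1 that act through CHR elements, in promoters that often also hold CCAAT elements. Resting naive T cells are mostly out of cycle, and T cells that expand in a lymphopenic host divide.

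Promoters are shown first for those genes whose signals moved in opposite directions between LP and naive cells. Of the 55 members, 45 matched a promoter of RefSeq (GRCm38.p6), taken from 250 bases before to 50 bases after the start site. Capitals mark each CCAAT word, each CHR word (TTTGAA or TTCGAA) and each E2F word (TTTCCCGC, TTTGGCGC, TTTCGCGC or TTTGCCGC), searched on both strands. CCAAT words can overlap one another in CCAATTGG, E2F words can overlap on opposite strands, and TTCGAA, its own reverse complement, was counted once. Kif23 (chr9:61946750-61947049, minus strand) and Kif11 (chr19:37376132-37376431, plus strand) encode kinesins and are the mitosis genes with the largest rise by the probe sets used, though other probe sets of Kif11 fell. Birc5 (chr11:117848987-117849286, plus strand) and Ube2c (chr2:164769679-164769978, plus strand) are those with the largest fall, and Mcm3 (chr1:20820263-20820562, minus strand) is a replication gene that fell. All 5 were picked by their measured differences, Kif23 and Kif11 by a rule of size and the last 3 after their values were seen. Mcm3 was in addition picked for its promoter, as the largest fall that passed among replication genes with an E2F word. Gins1, Tk1 and Rfc4 fell more, and the presence of an E2F word in Mcm3 was fixed by this choice.
Kif23: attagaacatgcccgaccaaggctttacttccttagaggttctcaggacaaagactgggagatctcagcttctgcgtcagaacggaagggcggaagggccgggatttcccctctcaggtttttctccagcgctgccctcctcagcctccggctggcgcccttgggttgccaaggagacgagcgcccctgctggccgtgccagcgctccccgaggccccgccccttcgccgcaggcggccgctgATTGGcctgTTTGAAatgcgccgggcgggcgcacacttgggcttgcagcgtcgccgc
Kif11: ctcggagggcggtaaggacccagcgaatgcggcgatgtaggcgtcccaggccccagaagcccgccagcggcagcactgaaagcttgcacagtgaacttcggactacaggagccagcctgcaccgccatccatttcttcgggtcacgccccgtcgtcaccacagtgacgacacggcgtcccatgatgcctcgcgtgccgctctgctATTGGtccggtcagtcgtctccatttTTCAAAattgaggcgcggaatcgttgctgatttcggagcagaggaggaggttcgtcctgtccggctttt
Birc5: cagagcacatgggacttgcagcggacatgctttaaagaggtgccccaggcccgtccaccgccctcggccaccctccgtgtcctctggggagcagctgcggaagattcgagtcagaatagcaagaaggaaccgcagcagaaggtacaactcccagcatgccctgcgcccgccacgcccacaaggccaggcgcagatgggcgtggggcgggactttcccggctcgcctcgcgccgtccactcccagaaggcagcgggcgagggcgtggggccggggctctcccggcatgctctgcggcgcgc
Ube2c: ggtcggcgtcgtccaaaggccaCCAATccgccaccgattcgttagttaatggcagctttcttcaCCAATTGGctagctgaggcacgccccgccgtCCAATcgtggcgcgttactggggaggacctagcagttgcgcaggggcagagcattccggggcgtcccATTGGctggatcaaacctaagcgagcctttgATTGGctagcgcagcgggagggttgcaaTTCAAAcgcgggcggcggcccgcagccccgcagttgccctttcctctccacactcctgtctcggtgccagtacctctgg
Mcm3: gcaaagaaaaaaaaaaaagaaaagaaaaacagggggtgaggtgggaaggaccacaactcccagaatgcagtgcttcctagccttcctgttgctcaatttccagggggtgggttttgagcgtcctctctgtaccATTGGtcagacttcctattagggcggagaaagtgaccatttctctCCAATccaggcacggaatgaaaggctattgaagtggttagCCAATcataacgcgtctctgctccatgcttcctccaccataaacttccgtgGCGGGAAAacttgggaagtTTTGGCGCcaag
Kif23 and Kif11, which were higher in LP cells by the probe sets used, and Ube2c, which was lower, each hold a CHR word close to the start site, beginning at 3, -19 and -29. Birc5 has none of these words in this window, and Mcm3 has 2 E2F words, at 20 and 39 after the start site, and 3 CCAAT words.

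Over all members with a promoter, the words were spread unevenly between the early and the late genes. An E2F word was present in 6 of 17 promoters of replication genes (35.3%), 2 of 9 of G1/S regulators (22.2%) and 1 of 22 of mitosis genes (4.55%), against 2.26% of all 32851 promoters of the same length. The replication genes with an E2F word were Mcm3, Mcm5, Mcm6, Mcm7, Cdc6 and Pola1. A CHR word was present in 17 of 22 promoters of mitosis genes (77.3%) and 3 of 17 of replication genes (17.6%), against 19.2% of all. CCAAT was found in 19 of 22 (86.4%) and 13 of 17 (76.5%), against 37.4%. Among mitosis genes that passed the test between LP and naive cells, 4 of 5 promoters of those that rose and 3 of 4 of those that fell held a CHR word. A matching word is a description of these letters and not a measured binding site.

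All signals below are those of the deposited table, linear and with a median of 1 on every array, and each gene is represented by its probe set with the highest mean signal. Differences are in log2 units and were tested with limma over all 18193 genes, with Benjamini-Hochberg adjustment and a threshold of 0.05. Across genes, which are no independent replicates, LP arrays had a Spearman's rho of 0.951 to 0.957 with each other and of 0.821 to 0.826 with the naive array. The T cell markers (7 of 8 measured) summed to 370.5 to 584 on LP arrays, against 537 in naive cells. Of these 7, 0 rose and 2 fell in LP cells, with a median difference of -0.73, against -0.14 for all genes. Cxcr6 had signals of 184 and 225 in CXCR6 Hi cells, 58.1 and 25.3 in CXCR6 Lo cells and 10.5 in naive cells. Markers of other cells also differed. The summed B cell and plasma cell markers (7 of 8 measured) were 5.87 to 125 on LP arrays, against 344 in naive cells, with Ighm at 0.923 to 2.45 against 123 and Cd79b at 0.540 to 0.752 against 21.96. The sum of the fibroblast and muscle markers (8 of 8) was 98.3 to 160 against 9.91, that of the erythroid markers (5 of 8) 35.4 to 44.2 against 91.9, that of the myeloid markers (8 of 8) 265 to 334 against 265, and that of the colonic epithelial markers (10 of 10) 45.5 to 96.2 against 106. Most of these sums hide opposite moves. Of the B cell and plasma cell markers 1 rose and 5 fell, and of the erythroid markers 1 rose and 3 fell. Of the myeloid markers 3 rose and 2 fell, with Cd14 at 58.5 to 93.0 on LP arrays against 1.95 in naive cells and S100a9 at 3.12 to 5.795 against 114. Of the epithelial markers 7 of 10 were higher in LP cells, with Krt8 at 9.36 to 29.6 against 0.387, and Car1 alone gave 85.2 of the naive sum. Xist was at 181 to 215 on LP arrays, against 0.864 in naive cells, and the ratio of 3′ to 5′ Gapdh control signals was 2.81 to 6.96 against 1.51. The sex of the mice and the preparation of the RNA therefore cannot be told apart from LP against naive, and the part of the other cells in the results was not tested. In RNA from bulk cells, fewer dividing cells and less RNA per dividing cell cannot be told apart.

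In LP T cells some replication genes were lower than in naive T cells and none passed as higher, while mitosis genes moved both ways. Of the 54 members, 6 rose, 15 fell and 33 did not pass, whereas 15.1% of all genes rose and 18.8% fell. All 6 that rose were mitosis genes (of 26), while 5 of 19 replication genes, 3 of 9 G1/S regulators and 7 of 26 mitosis genes fell. No replication gene rose in the limma test (0 of 19), 1 was higher at an unadjusted p under 0.05, and the test that the methods name gave 1. Likewise 0 of 9 G1/S regulators rose, and 0 were higher at an unadjusted p under 0.05 or by the methods' test. The median log2 difference was -0.63 for replication genes, -0.32 for G1/S regulators and 0.16 for mitosis genes, against -0.14 for all genes. The mitosis median turned to -0.51 without _s_at and _x_at probe sets (all genes -0.17) and was 0.72 with quantile normalization (all genes -0.0039), with replication at -0.81 and -0.18. Signals lay below the naive array on all 4 LP arrays for 28 members and above it on all 4 for 19, against 40.9% and 35% of all genes. With quantile normalization 9 members rose and 9 fell, in place of 6 and 15, while 15.2% of all genes rose and 12.7% fell. When any 1 LP array was left out, its subset held a single array, so medians are given in place of counts. The median then lay from -0.77 to -0.46 for replication genes, 0.02 to 0.30 for mitosis genes and -0.17 to -0.10 for all genes.

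**Figure D1:**
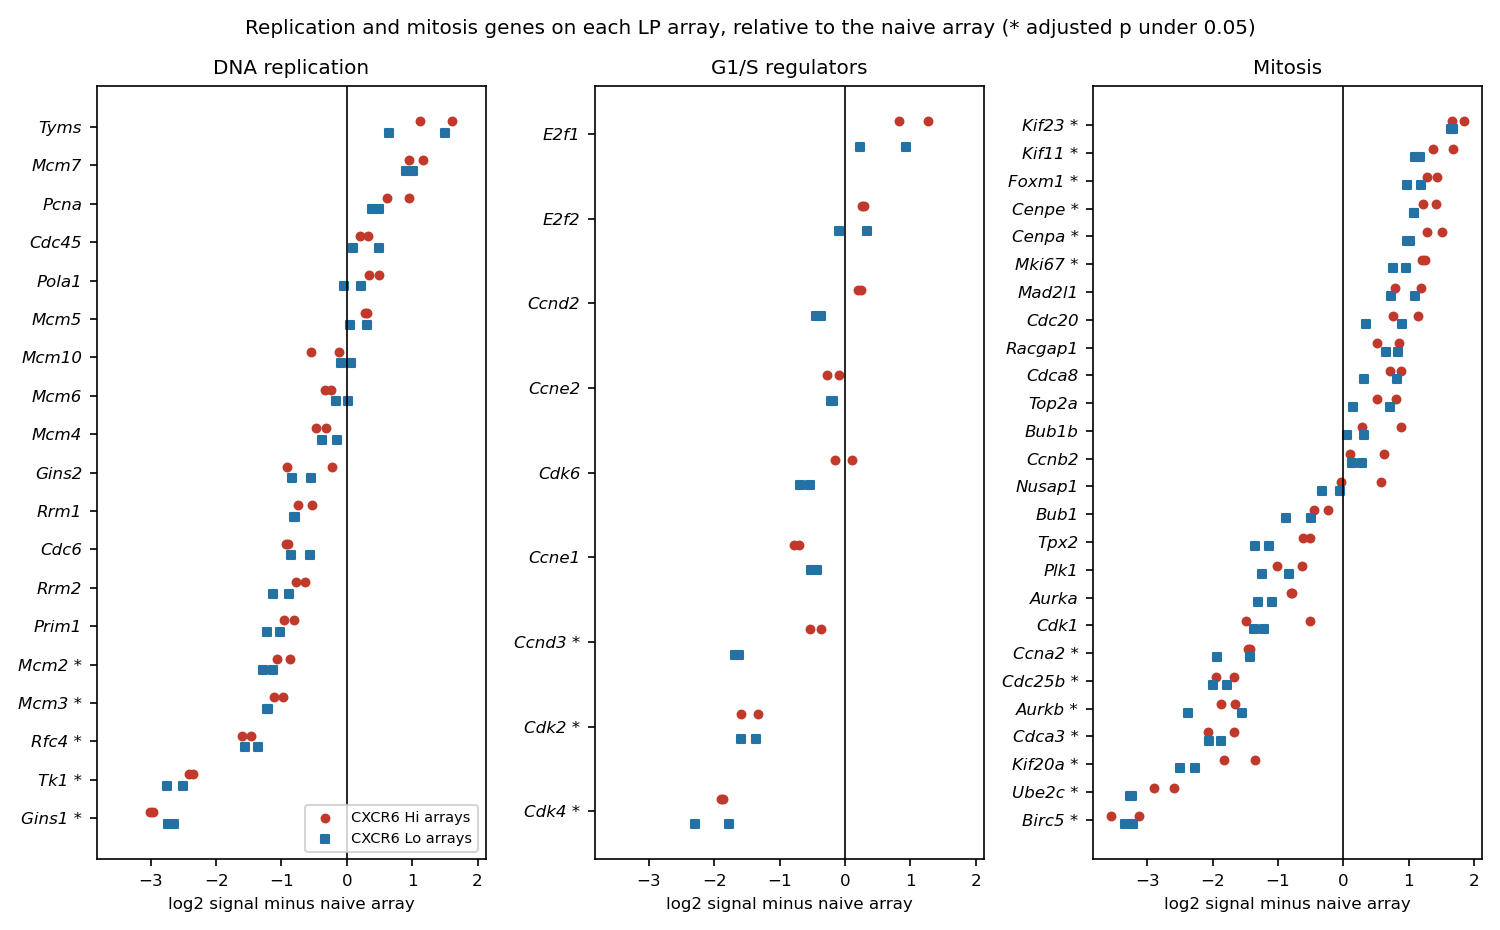
Log2 signal of each member on the 4 LP arrays minus that on the naive array (x axis, log2 units), by gene (y axis) and role, with CXCR6 Hi arrays as red circles, CXCR6 Lo arrays as blue squares and an asterisk at an adjusted p under 0.05. Replication genes lie mostly left of 0 with 5 of 19 passing as lower, and mitosis genes extend to both sides with 6 passing as higher and 7 as lower.

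Among the 11 genes of origin licensing and the replicative helicase, 3 fell (27.3%) and 0 rose, against 18.8% and 15.1% of all genes. The largest difference was that of Gins1, a subunit of the GINS complex that activates the helicase. Gins1 had signals of 3.12 and 3.04 in CXCR6 Hi cells, 3.90 and 3.66 in CXCR6 Lo cells and 24.5 in naive cells. All 4 LP arrays were far below the naive array, with a limma log2 difference of -2.84 (SE 0.24 and adjusted p = 0.0121). Gins2, another subunit of the complex, differed by -0.63, which did not pass (adjusted p = 0.274).

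The MCM subunits differed among themselves. Mcm2 had 17.8 and 20.4 in CXCR6 Hi cells, 15.2 and 16.9 in CXCR6 Lo cells and 37.2 in naive cells, a difference of -1.09 (SE 0.26, adjusted p = 0.0479 from limma). Mcm3 had 20.1 and 22.2 in CXCR6 Hi cells, 18.8 and 19.0 in CXCR6 Lo cells and 43.7 in naive cells, a difference of -1.13 (SE 0.24, adjusted p = 0.0396). By these probe sets both were lower on every LP array than on the naive array and passed. A second probe set of Mcm2 gave -0.10, with 14.4 and 13.6 in CXCR6 Hi cells, 10.7 and 10.6 in CXCR6 Lo cells and 13.1 in naive cells. The remaining subunits of the ring, Mcm4, Mcm5, Mcm6 and Mcm7, had differences of -0.33, 0.24, -0.18 and 1.01 and did not pass. Mcm7 came closest, at an adjusted p of 0.0542. For Mcm5 and Mcm7, however, the sign depended on the probe set. The probe set used for Mcm7 gave 1.01, while its 3 others averaging a signal of 1 or more gave -0.64, -1.17 and -1.20. That of Mcm5 gave 0.24 and its 2 others -1.50 and -1.99. Cdc6 and Cdc45, which load and activate the helicase, and Mcm10, which helps to open the origin, had differences of -0.81, 0.28 and -0.17 that did not pass.

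Of the 4 genes of the polymerase, primase and clamp, 1 fell (25%, against 18.8% of all genes). Rfc4, a subunit of the loader that places the PCNA clamp on DNA, had 9.89 and 10.9 in CXCR6 Hi cells, 10.2 and 11.7 in CXCR6 Lo cells and 30.1 in naive cells. Its difference was -1.50 (SE 0.25, adjusted p = 0.0258), with the subsets overlapping each other and well below the naive array. Pcna, the clamp itself, had 147 and 186 in CXCR6 Hi cells, 136 and 127 in CXCR6 Lo cells and 96.5 in naive cells. It was thus above the naive array on all 4 LP arrays, but the difference of 0.61 did not pass (SE 0.28, adjusted p = 0.170). Prim1, the catalytic primase subunit, had a difference of -1.003 (adjusted p = 0.0568) and Pola1, the catalytic subunit of polymerase alpha, 0.25 (adjusted p = 0.497).

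Among the 4 genes of nucleotide supply, Tk1, the cytosolic thymidine kinase of S phase, fell (25%, against 18.8% of all genes). Tk1 had 4.51 and 4.37 in CXCR6 Hi cells, 3.43 and 4.06 in CXCR6 Lo cells and 23.2 in naive cells, a difference of -2.51 (SE 0.26, adjusted p = 0.0142). Every LP array was below the naive array by a wide margin. Rrm1 and Rrm2, the ribonucleotide reductase subunits, had -0.72 (adjusted p = 0.103) and -0.86 (adjusted p = 0.0793). Tyms, thymidylate synthase, was dim, at 1.42 to 2.76 on LP arrays, against 0.905 in naive cells, and its difference of 1.22 did not pass (adjusted p = 0.126).

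Of the 9 regulators of the G1/S transition, Cdk4, Cdk2 and Ccnd3 fell (33.3%, against 18.8% of all genes) and 6 did not pass. Cdk4, the kinase partner of D-type cyclins, had 14.3 and 14.5 in CXCR6 Hi cells, 10.8 and 15.4 in CXCR6 Lo cells and 52.9 in naive cells, a difference of -1.96 (SE 0.31, adjusted p = 0.0239). All 3 of its probe sets were lower, by -1.90 to -2.20. Cdk2, the partner of cyclins E and A, had 3.98 and 4.80 in CXCR6 Hi cells, 3.98 and 4.69 in CXCR6 Lo cells and 12.1 in naive cells, a difference of -1.47 (SE 0.28, adjusted p = 0.0312). The arrays of the LP subsets overlapped for both kinases, and all lay below the naive array.

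The D-type cyclins, which carry growth signals to CDK4 and CDK6, had 2 members in the set, Ccnd2 and Ccnd3. By the probe sets used, these and the kinase Cdk6 had signals that did not overlap between the LP subsets, though none of the differences passed after adjustment. Such a gap is common with 2 arrays each, as both CXCR6 Hi arrays were above both CXCR6 Lo arrays for 25.1% of all genes. The third D-type cyclin, Ccnd1, listed among the further G1/S regulators, overlapped, with 2.14 and 2.14 in CXCR6 Hi cells and 2.07 and 2.51 in CXCR6 Lo cells. Ccnd3 had 18.1 and 20.3 in CXCR6 Hi cells, 8.13 and 8.46 in CXCR6 Lo cells and 26.1 in naive cells. Taking the LP subsets together gives -1.05 (SE 0.25, adjusted p = 0.0468). By subset it was -0.45 in CXCR6 Hi cells (adjusted p = 0.278) and -1.66 in CXCR6 Lo cells (adjusted p = 0.0278). Ccnd2 had 104 and 101 in CXCR6 Hi cells, 64.4 and 68.1 in CXCR6 Lo cells and 88.0 in naive cells, so that by this probe set the naive array lay between the subsets. In its other probe sets the naive array lay either below or above all LP arrays. Cdk6 had 41.3 and 34.5 in CXCR6 Hi cells, 23.8 and 26.7 in CXCR6 Lo cells and 38.5 in naive cells. The differences of Ccnd2 and Cdk6 from the naive array, -0.10 and -0.32, did not pass (adjusted p = 0.776 and 0.403). A second probe set of Cdk6 went the other way by 1.64, with 44.1 and 38.7 in CXCR6 Hi cells, 25.8 and 32.3 in CXCR6 Lo cells and 11.1 in naive cells. Ccne1 and Ccne2, the E-type cyclins, had -0.61 and -0.19, and the transcription factors E2f1 and E2f2 had 0.82 and 0.20, none of which passed.

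Of the 7 measured genes of the mitotic cyclins, entry kinases and FoxM1, Foxm1 rose (14.3%) and Ccna2 and Cdc25b fell (28.6%), against 15.1% and 18.8% of all genes. Cdc25b, a phosphatase that activates CDK1, had 15.5 and 12.8 in CXCR6 Hi cells, 12.5 and 14.4 in CXCR6 Lo cells and 49.6 in naive cells, a difference of -1.85 (SE 0.27, adjusted p = 0.0212). Ccna2, cyclin A2 of S phase and mitotic entry, had 12.1 and 12.4 in CXCR6 Hi cells, 8.71 and 12.3 in CXCR6 Lo cells and 33.3 in naive cells, a difference of -1.56 (SE 0.31, adjusted p = 0.0348). Both were below the naive array on every LP array, and the subsets overlapped for both. A second probe set of Ccna2 gave a smaller difference of -0.48, with 10.3 to 12.7 on LP arrays against 16.5 in naive cells. Foxm1, the transcription factor of late cell cycle genes, had 4.86 and 4.39 in CXCR6 Hi cells, 4.10 and 3.54 in CXCR6 Lo cells and 1.80 in naive cells, a difference of 1.22 (SE 0.26, adjusted p = 0.0383). Cdk1, the mitotic kinase, had 8.82 and 17.3 in CXCR6 Hi cells, 9.58 and 10.7 in CXCR6 Lo cells and 24.7 in naive cells. Its CXCR6 Hi arrays lay far apart, and the difference of -1.14 did not pass (SE 0.47, adjusted p = 0.141). Plk1 and Aurka, kinases of the spindle poles and mitotic entry, had -0.93 (adjusted p = 0.108) and -0.996 (adjusted p = 0.0546), and Ccnb2, cyclin B2, had 0.29 (adjusted p = 0.530).

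The chromosomal passenger, checkpoint and anaphase-promoting complex group held the largest falls. In it 4 of 9 genes were lower (44.4%) and 0 higher, against 18.8% and 15.1% of all genes. Birc5, survivin, a subunit of the passenger complex, had 8.62 and 6.40 in CXCR6 Hi cells, 7.41 and 8.06 in CXCR6 Lo cells and 75.3 in naive cells. All LP arrays lay close together and far below the naive array, a difference of -3.31 (SE 0.30, adjusted p = 0.0127). Ube2c, a ubiquitin-conjugating enzyme of the anaphase-promoting complex, had 5.74 and 4.64 in CXCR6 Hi cells, 3.62 and 3.67 in CXCR6 Lo cells and 34.6 in naive cells, a difference of -3.00 (SE 0.27, adjusted p = 0.0126). Cdca3, a trigger of mitotic entry, had 4.68 and 6.13 in CXCR6 Hi cells, 4.71 and 5.36 in CXCR6 Lo cells and 19.6 in naive cells, a difference of -1.92 (SE 0.29, adjusted p = 0.0223). Its 2 other probe sets were dim, at 0.013 and 0.111 in naive cells, and averaging all 3 turned the difference to 2.12. Aurkb, the kinase of the passenger complex, had 3.01 and 3.49 in CXCR6 Hi cells, 2.11 and 3.78 in CXCR6 Lo cells and 11.0 in naive cells, a difference of -1.86 (SE 0.43, adjusted p = 0.0454). Its second probe set gave -0.10, with 4.71 and 4.25 in CXCR6 Hi cells, 3.54 and 5.14 in CXCR6 Lo cells and 4.69 in naive cells. By the probe sets used, other members of the same complexes had positive differences that did not pass. Cdca8, borealin of the passenger complex, had 0.69, Mad2l1 and Bub1b of the spindle checkpoint 0.95 and 0.39, and Cdc20, the activator of the anaphase-promoting complex, 0.79 (adjusted p of 0.0986 to 0.444). Their other probe sets averaging a signal of 1 or more gave 0.72 and -0.57 (Cdca8), 0.04 and -3.63 (Cdc20) and -0.62 (Bub1b). Bub1, a checkpoint kinase, had -0.51 (adjusted p = 0.248).

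**Figure D2:**
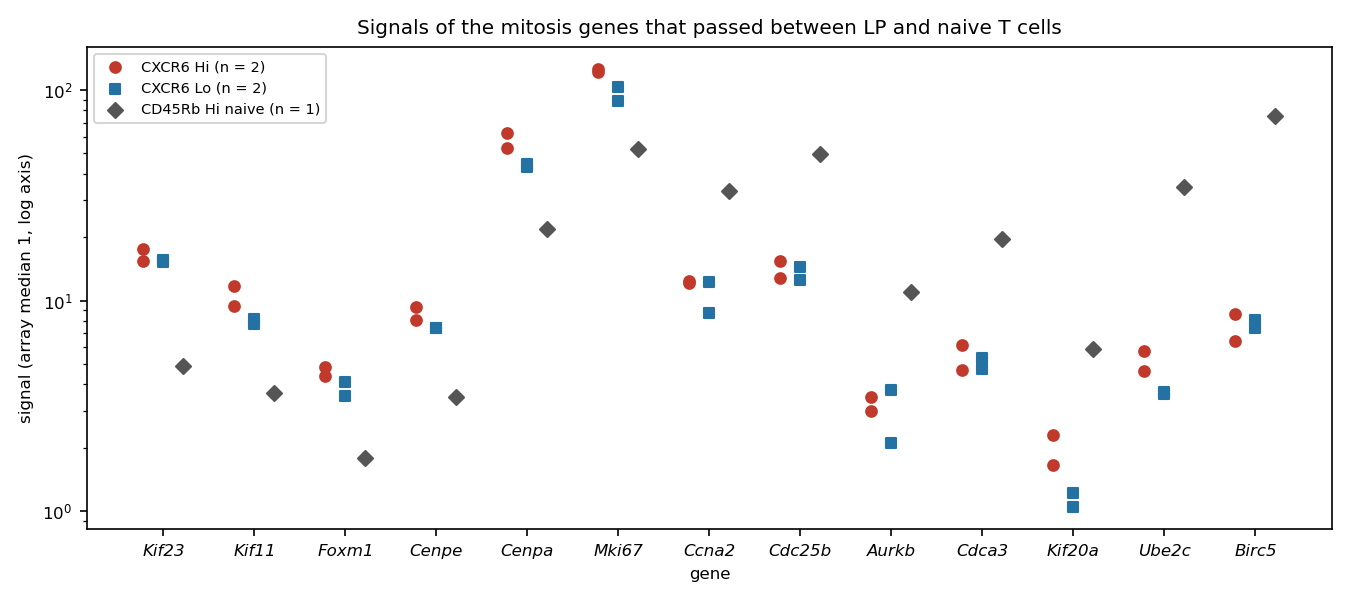
Signal (y axis, log scale, array median 1) of the 13 mitosis genes that passed between LP and naive cells, on CXCR6 Hi arrays (red circles), CXCR6 Lo arrays (blue squares) and the naive array (grey diamonds). For the 6 genes at the left all 4 LP arrays are above the naive array, and for the 7 at the right all 4 are below it, with Birc5 at 6.40 to 8.62 against 75.3.

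Genes of the spindle, centromere and cytokinesis held most of the genes that rose, with a median difference of 0.96. By the probe sets used, 4 of 8 were higher (50%) and 1 lower (12.5%), against 15.1% and 18.8% of all genes. Kif23, a kinesin of the central spindle, had 15.4 and 17.6 in CXCR6 Hi cells, 15.7 and 15.3 in CXCR6 Lo cells and 4.87 in naive cells. It was 3.28-fold higher in LP cells, a difference of 1.71 (SE 0.25, adjusted p = 0.0204), and the subsets overlapped. Kif20a, a kinesin of cytokinesis, went the other way, with 1.66 and 2.30 in CXCR6 Hi cells, 1.23 and 1.05 in CXCR6 Lo cells and 5.88 in naive cells, a difference of -1.98 (SE 0.32, adjusted p = 0.0238). Kif11, the kinesin that separates the spindle poles, Cenpa, the histone H3 variant of centromeres, and Cenpe, a kinesin of kinetochores, rose by 1.33, 1.20 and 1.20 (adjusted p = 0.0354, 0.0388 and 0.0374). These 3 and Foxm1 fall outside the rule for named genes and were added after their values were seen. Other probe sets averaging a signal of 1 or more gave -0.73 and -0.41 for Kif11 and -0.42 for Foxm1. Of the genes that did not pass, Tpx2, which builds spindle microtubules, had -0.90 (adjusted p = 0.0687), Racgap1, of the central spindle, 0.72 (adjusted p = 0.131) and Nusap1, a microtubule-binding protein, 0.04 (adjusted p = 0.938).

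Of the chromosome proteins, Mki67, the proliferation marker Ki-67, rose and Top2a did not pass. Mki67 had 121 and 126 in CXCR6 Hi cells, 88.8 and 103 in CXCR6 Lo cells and 52.6 in naive cells. It was higher on all 4 LP arrays, a difference of 1.05 (SE 0.25, adjusted p = 0.0493), just inside the threshold. Top2a, the topoisomerase that untangles sister chromatids, had 62.7 and 76.4 in CXCR6 Hi cells, 48.4 and 71.7 in CXCR6 Lo cells and 43.7 in naive cells. All 4 LP arrays were above the naive array, but the difference of 0.55 did not pass (SE 0.35, adjusted p = 0.294).

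The direction of several genes depended on which of their probe sets was read. Among the 54 measured members, 41 had more than 1 probe set, and 51 of the 75 others averaged a signal of 1 or more over the arrays. With such probe sets counted, 13 members were lower in LP cells by all of them, 4 were higher by all, 16 disagreed in sign and 21 had only 1. Replication genes were lower by all probe sets in 9 cases, disagreed in 4 and were higher by all in 1. Mitosis genes were lower by all in 2 cases, higher by all in 3 and disagreed in 7. Cenpa, Cenpe and Top2a were the mitosis genes higher by all of theirs. For Kif11, the probe set used gave 1.33 and the 2 others -0.73 and -0.41, and for Foxm1 the only other gave -0.42. For Mcm3, 4 probe sets gave -1.13 to -5.05 and 1 gave 0.35. Kif23, Birc5, Tk1 and Kif20a had only 1 such probe set.

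**Figure D3:**
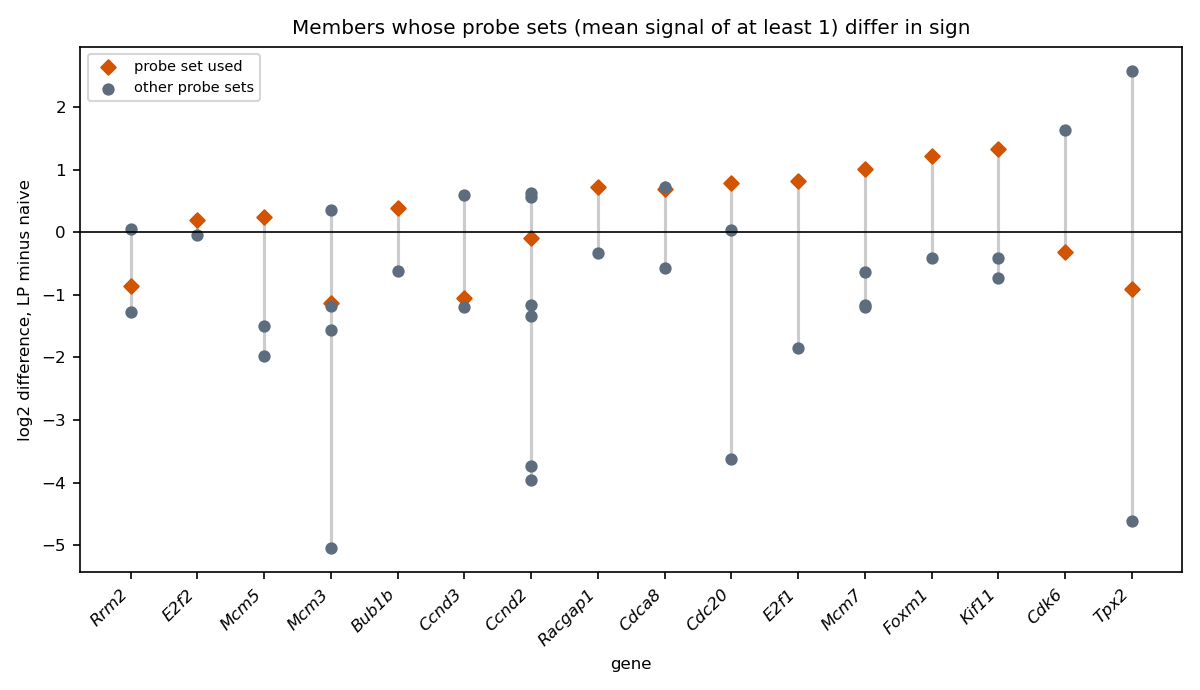
Log2 difference of LP minus naive (y axis) for every probe set averaging a signal of 1 or more, for the 16 members (x axis) whose probe sets disagree in sign, with the probe set used as an orange diamond and the others as grey circles. Those of Tpx2 range from -4.62 to 2.58, and the used probe set of Mcm7 lies at 1.01 above 3 others that are below 0.

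Each subset was also set against the same naive array, so these comparisons share it. In CXCR6 Hi cells 6 members rose and 10 fell (13.2% and 15.3% of all genes). The 6 were Kif23, Kif11, Cenpa, Foxm1, Cenpe and Mki67, with differences of 1.76, 1.53, 1.40, 1.36, 1.32 and 1.23. In CXCR6 Lo cells 1 member rose and 15 fell (12.8% and 16.7% of all genes). The one that rose was Kif23, by 1.67 (adjusted p = 0.0279). Kif11, Cenpa, Foxm1, Cenpe and Mki67 had 1.135, 1.00, 1.08, 1.09 and 0.86 in CXCR6 Lo cells and did not pass, at adjusted p of 0.0591 to 0.0932. With quantile normalization the number that rose in CXCR6 Lo cells was 8 (12.8% of all genes), and the test of the difference between the subsets itself found none.

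Between CXCR6 Hi and CXCR6 Lo cells no member passed the test, and most mitosis genes had slightly higher signals in CXCR6 Hi cells. In limma 0 of 54 members and 0% of all genes passed. At an unadjusted p under 0.05, 3 members were higher in CXCR6 Hi cells and 0 lower, against 6.55% of all genes in either direction, and the methods' test without adjustment gave 5 members. Differences were small and mostly positive. They were above 0 for 44 of 54 members, comprising 24 of 26 mitosis genes, 12 of 19 replication genes and 8 of 9 G1/S regulators, against 57.5% of all genes, and below 0 for 10, against 42.5% of all genes. The median was 0.23 for members and 0.08 for all genes. With quantile normalization 28 of 54 members were above 0 (17 of 26 mitosis genes and 7 of 19 replication genes), against 46.4% of all genes, and without CXCR6 Lo replicate 1 the number was 31. Both CXCR6 Hi arrays were above both CXCR6 Lo arrays for 22 members (25.1% of all genes), of which 11 were mitosis genes, and below them for 5 (14.3% of all genes), of which 4 were replication genes, and the arrays overlapped for 27.

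The 5 members with the largest difference between the subsets were all higher in CXCR6 Hi cells. Ccnd3, whose signals of 18.1 and 20.3 in CXCR6 Hi cells and 8.13 and 8.46 in CXCR6 Lo cells do not overlap, was 2.31-fold higher, a difference of 1.21 (SE 0.22, unadjusted p = 0.0067 and adjusted p = 0.564 from limma). Its 2 other probe sets gave -0.24 and -0.42, and in 1 of these the arrays overlapped (6.31 and 3.22 in CXCR6 Hi cells, 5.47 and 5.19 in CXCR6 Lo cells). Kif20a, at low signals, had 0.79 (SE 0.28, adjusted p = 0.761). Tpx2 had 7.75 and 8.34 in CXCR6 Hi cells, 4.64 and 5.42 in CXCR6 Lo cells and 11.9 in naive cells, a difference between the subsets of 0.68 (SE 0.23, adjusted p = 0.748). For Ccnd2 the difference was 0.63 (SE 0.21, adjusted p = 0.754), and all 7 of its probe sets were higher in CXCR6 Hi cells, by 0.63 to 1.13. Cdk6 had 0.58 (SE 0.24, adjusted p = 0.761). The genes lowest in CXCR6 Hi cells were Mcm10 at -0.33, Gins1 at -0.29 and Ccne1 at -0.26 (adjusted p of 0.813 to 0.819).

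**Figure D4:**
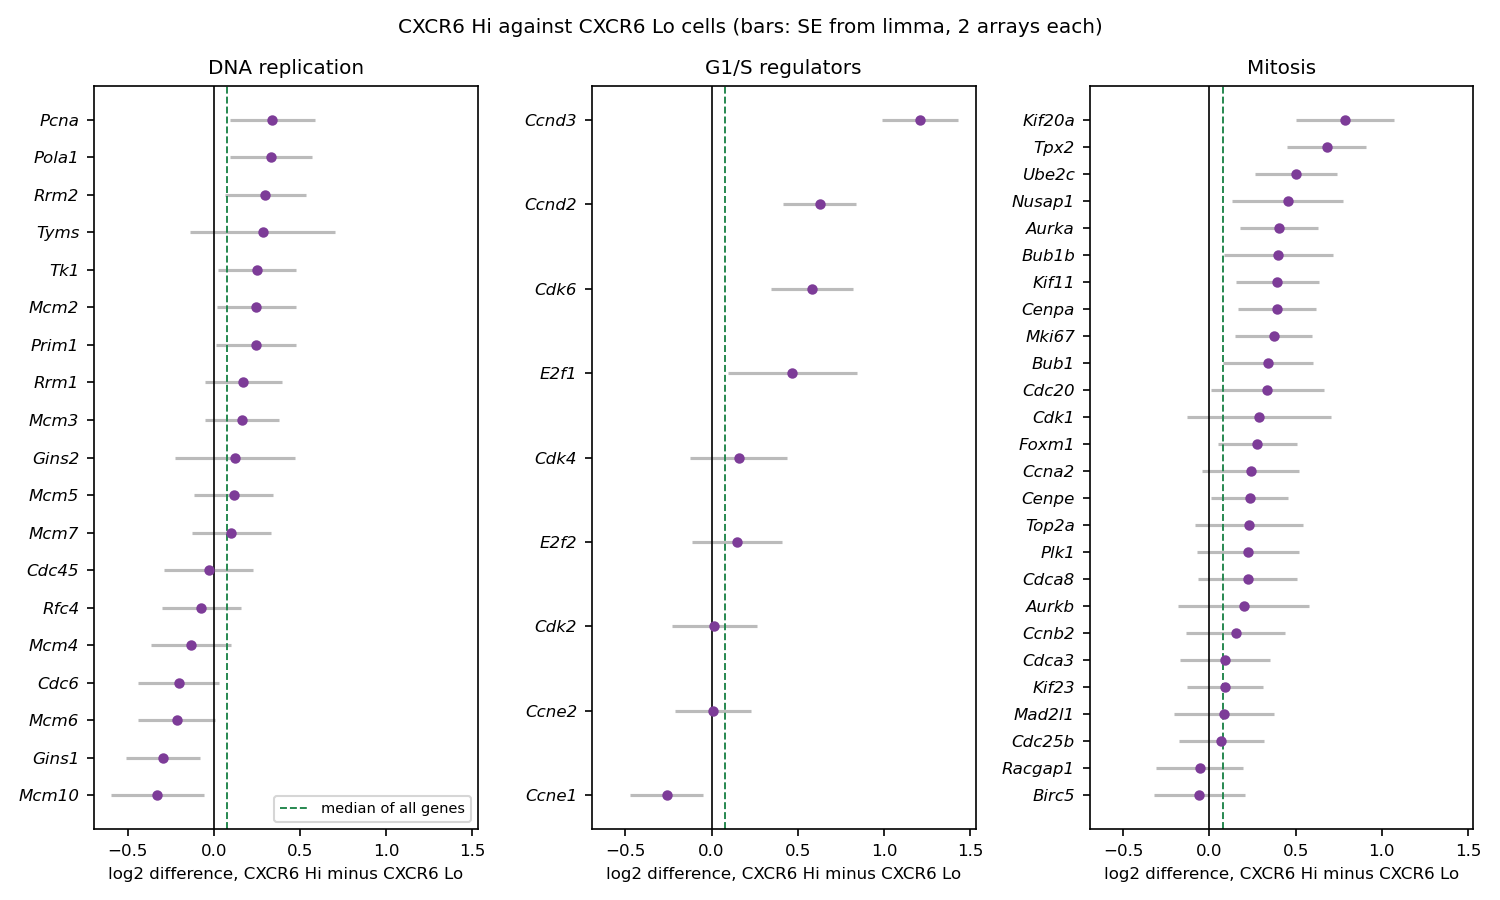
Log2 difference of CXCR6 Hi minus CXCR6 Lo cells (x axis) for each member (y axis), with bars for the SE from limma (2 arrays each) and a dashed line at the median of all genes, 0.08. Points lie right of 0 for 24 of 26 mitosis genes and 12 of 19 replication genes, and Ccnd3 stands farthest right at 1.21.

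Replicate arrays of 1 subset also differed from each other. The median absolute log2 difference between replicates was 0.21 for the members in both CXCR6 Hi and CXCR6 Lo cells, and 0.37 and 0.34 for all genes. Replicate 1 was above replicate 2 for 11 of 54 members in CXCR6 Hi cells and for 14 of 54 in CXCR6 Lo cells, against 39.1% and 47.7% of all genes. Some markers of other cells moved with the replicate number too. Krt8, a keratin of epithelial cells, had 9.36 and 25.4 in CXCR6 Hi replicates 1 and 2 and 10.3 and 29.6 in CXCR6 Lo replicates 1 and 2, and Jchain, of plasma cells, had 73.3 and 2.21 in CXCR6 Hi cells and 121 and 6.38 in CXCR6 Lo cells, replicate 1 first. The summed epithelial, B cell and plasma cell, and fibroblast and muscle markers each moved the same way in both subsets. The myeloid sums did not, at 265 and 334 in CXCR6 Hi cells and 332 and 318 in CXCR6 Lo cells, replicate 1 first. Nor did the erythroid sums, at 44.2 and 39.2 and at 35.4 and 35.5. The part of these markers' cells in the members' values was not tested.

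Other genes of the same pathways, listed by name and not by their values, were read in the same fit. Of all genes, 15.1% rose and 18.8% fell in LP cells. Of 38 measured further replication genes, 2 rose (5.26%) and 13 fell (34.2%), with a median difference of -0.91. Uhrf1, which maintains DNA methylation at the replication fork, had 5.69 and 5.22 in CXCR6 Hi cells, 4.36 and 3.755 in CXCR6 Lo cells and 64.2 in naive cells, a difference of -3.77 (SE 0.26, adjusted p = 0.0119). Rnaseh2a, a subunit of ribonuclease H2, had -2.24 (SE 0.28, adjusted p = 0.0166). The 2 that rose, named after their values were seen, were Cdt1, a licensing factor, by 1.04 (adjusted p = 0.0462) and Rpa1, of the single-strand binding complex, by 1.29 (adjusted p = 0.0325). Of 49 further mitosis genes, 5 rose (10.2%) and 7 fell (14.3%), both below the shares of all genes, with a median of -0.33. Kifc1, a minus-end kinesin, and Cenph, of the kinetochore, had the largest fitted differences, -5.03 (SE 0.95, adjusted p = 0.0315) and -3.42 (SE 0.24, adjusted p = 0.0119). Kifc1 was at 0.190 to 0.841 and Cenph at 0.900 to 1.30 on LP arrays, against 11.7 and 11.6 in naive cells, and with signals floored at 1 the differences were -3.54 and -3.36.

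Of 16 further G1/S regulators, 2 rose (12.5%) and 4 fell (25%), against 15.1% and 18.8% of all genes. E2f5, a repressor E2F, had 16.8 and 11.48 in CXCR6 Hi cells, 10.4 and 12.5 in CXCR6 Lo cells and a dim 0.102 in naive cells. The fitted difference of 6.94 (SE 0.34, adjusted p = 0.0119) rests on that dim signal and was 3.65 with signals floored at 1 (adjusted p = 0.0262). E2f3, an activator E2F, fell by 3.35 (SE 0.45, adjusted p = 0.0187, and 0.0530 with the floor). Of the 7 inhibitors of cyclin-dependent kinases, 3 rose (42.9%) and 1 fell (14.3%). Cdkn1a, p21, had 67.7 and 56.2 in CXCR6 Hi cells, 31.5 and 37.9 in CXCR6 Lo cells and 2.91 in naive cells, a difference of 3.99 (SE 0.28, adjusted p = 0.0119). Both its CXCR6 Hi arrays were above both CXCR6 Lo arrays, as for 25.1% of all genes. Cdkn1c, p57, with dim signals of 0.835 to 1.54 on LP arrays against 0.066 in naive cells, had a fitted difference of 4.10 (adjusted p = 0.0158), which was 0.27 with the floor and did not pass (adjusted p = 0.933). Between the subsets 0 genes of these 4 lists passed in limma, with 1 further mitosis gene and 2 inhibitors higher at an unadjusted p under 0.05.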

How the data were processed

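Total RNA of 5 samples was hybridized to Affymetrix mouse arrays (CXCR6 Hi, n = 2, CXCR6 Lo, n = 2, CD45Rb Hi naive, n = 1). The authors deposited intensity values on a linear scale, each array having a median of 1. The methods name GeneSpring and the submitters' notes name RMA. How background was corrected or probes filtered is not given in the sources used here, and the values are not quantile normalized.

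Of 45101 probe sets, 34945 carry 1 gene symbol, 932 several and 9211 none, and 13 controls that carry 1 symbol were dropped. The brightest probe set by mean signal stood for each of 18193 genes. Unfiltered signals were taken to log2 after 2 zeros were replaced by 0.001. A model of the 3 groups was fitted with lmFit and eBayes of limma 3.58.1 (R 4.3.3), with two-sided p-values adjusted by Benjamini-Hochberg across all genes at a threshold of 0.05. The fit has 2 residual and 1.678 prior degrees of freedom, and the spread of naive cells was taken to equal that of the LP groups. Simulated data were used to test the fit between the LP subsets only, with changes larger than those of any member. The comparison of LP with the single naive array was not simulated. P-values measure only the spread between arrays, and the small number of arrays limits precision.

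The members and lists were chosen with earlier results of these data known. Genes given in full were the 2 largest differences that passed in each role group, all that fell, Mki67, Top2a, Pcna and Cdk1, and the 5 largest differences between the subsets. Of other lists the 2 largest were named. Replicate numbers were not taken to pair the arrays (correlation of deviations 0.0193 across genes, 2 pairs). Settings tried in addition were a mean over each gene's probe sets, no _s_at and _x_at probe sets, a filter at the 40th percentile, quantile normalization, signal plus 1, a floor at 1, a robust fit with a variance trend, a replicate block or fixed replicate term, leaving out each LP array, and the methods' test. Figures were drawn with matplotlib 3.10.9 in Python 3.11.15.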

Additional observations from a re-analysis of the deposited data

Results flagged for a closer look

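By the probe set used, Ccnd2, which encodes cyclin D2, was above the naive array on both CXCR6 Hi arrays (log2 difference 0.22) and below it on both CXCR6 Lo arrays (-0.41). No other probe set of Ccnd2 showed this, as in each the naive array lay either below or above all LP arrays. The difference between the subsets was 0.63, with an adjusted p of 0.754 and an unadjusted p of 0.0464 from limma, so the opposite directions did not pass the test. Those of its probe sets that averaged a signal of 1 or more ranged from -3.96 to 0.63 against the naive array.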

How the results depend on the processing

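The number of replication genes that rose in LP cells, 0, was 1 with the mean of probe sets, quantile normalization, the signal plus 1, a floor at 1 and the methods' test with or without adjustment, and 2 with the 40th percentile filter and the variance trend. Mitosis genes that rose, 6, were 1 with the mean of probe sets, 10 with the trend, 3 by the methods' test with adjustment and 0 with a fixed replicate term (7 at an unadjusted p under 0.05). The share of all genes that rose, 15.1%, was 10.9% with the mean of probe sets, 15.2% with quantile normalization and 15.5% with the signal plus 1. It was 5.87% with the floor, 22.7% with the filter and 19.5% with the trend. The methods' test gave 11.1% of all genes with adjustment and 19.0% without. Members that fell, 15, were 23 with the filter, 9 with quantile normalization, 24 with the signal plus 1 and 5 with the fixed term, and the share of all genes that fell, 18.8%, moved alike, to 39.5%, 12.7%, 28.0% and 9.93%. In CXCR6 Hi cells the 6 that rose were 1 with the mean of probe sets, 11 with the filter or the trend and 0 with the fixed term (7 unadjusted). The share of all genes that rose there, 13.2%, was 8.87% with the mean of probe sets, 22.4% with the filter and 18.4% with the trend. In CXCR6 Lo cells the 1 was 2 with the mean of probe sets or the floor, 8 with the filter, quantile normalization or the signal plus 1, 9 with the trend and 0 with the fixed term (4 unadjusted). The share of all genes that rose there, 12.8%, was 8.64% with the mean of probe sets, 4.51% with the floor and 20.0% with the filter. It was 12.8% with quantile normalization, 13.1% with the signal plus 1 and 17.4% with the trend. Between the subsets the methods' unadjusted test gave 5 members. With the fixed term 9.37% of all genes rose in LP cells, and 0% of all genes rose in either subset against the naive array. Leaving out 1 LP array leaves 1 array in its subset, so medians are given for these fits in place of counts. Relative to all genes, the median then ranged from -0.61 to -0.36 for replication genes and from 0.19 to 0.40 for mitosis genes. The causes of these changes were not tested.

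The correlation of deviations over all genes was under the level set for pairing, although most members and some markers moved with the replicate number in both subsets, and 2 pairs cannot settle it. With the replicate block, whose correlation of 0.0254 was estimated from the residuals, 6 members rose and 15 fell as without it, and it changed no call, whereas the fixed term left 0 that rose and 5 that fell. Quantile normalization shifted the median of all genes by 0.13 between LP and naive cells and by -0.11 between the subsets. Relative to all genes, the median of replication genes was -0.50 as reported and -0.18 with quantile normalization, and that of mitosis genes 0.30 and 0.72. Without _s_at and _x_at probe sets the mitosis median was -0.34 relative to all genes.

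Among single genes, 19 values between LP and naive cells changed sign. With quantile normalization these were Bub1 at 0.0984, Ccne1 at 0.0168, Ccne2 at 0.426, Cdk6 at 0.107, Mcm10 at 0.428 and Mcm6 at 0.0537. With the mean of probe sets they were Cdc20 at -0.934, Cdca3 at 2.12, E2f1 at -0.541, Mcm5 at -1.08, Mcm7 at -0.499, Tpx2 at 0.875 and Tyms at -0.301. Without _s_at and _x_at probe sets they were Bub1b at -0.623, Cdca8 at -0.568, Mcm5 at -1.50 (adjusted p = 0.0289) and Mcm7 at -0.636. Nusap1, at 0.04 as reported, ranged over the left-out arrays up to 0.193 and was -0.109 without CXCR6 Hi replicate 2 and -0.0262 without CXCR6 Lo replicate 2. Of the remaining single-gene values, 678 kept their direction and side of the threshold, 65 passed only under the alternative and 122 no longer passed. Signal over background is not given on these arrays, so no limit for dim genes could be set. The floor for genes outside the set was chosen after seeing the data.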
